A study of Mus musculus with 20 samples.

Results

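The data follow 10 genes of the Müller glia through 20 bulk RNA-Seq libraries of whole mouse retinas. They were chosen by symbol, as the rows for Glul, Slc1a3, Aqp4, Kcnj10, Car2, Apoe, Clu, Dkk3, Sox9 and Vim, and made up 10 of the 19368 genes listed for the first experiment and 10 of the 19102 listed for the second. The values are FPKM, fragments scaled to transcript length and to the number of mapped fragments, so that levels can also be set side by side between genes. All 10 genes passed the filter on low values, a mean FPKM above 0.1, in both experiments.

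The first experiment used oxygen-induced retinopathy (OIR), in which pups breathe 75% oxygen from postnatal day (P) 7 to P12, lose retinal capillaries and regrow vessels in room air; retinas of Atf6+/+ OIR and Atf6-/- OIR mice on the C57BL/6J background were taken at P17, giving 5 libraries of each genotype. Atf6 encodes a sensor of unfolded protein in the endoplasmic reticulum that is cut at the Golgi to release a transcription factor, and the knockout allele carries a premature stop codon in every cell of the body, not in glia alone. The second experiment used P30 wild-type mice with no OIR, whose eyes received 1 µL of saline with the solvent (PBS, 5 libraries) or of 10 µM Ceapin-A7, a small molecule that blocks ATF6 activation (5 libraries), 24 h before collection. The sources used here differ on the share of the solvent, dimethyl sulfoxide, in the PBS and Ceapin-A7 injections, so it may have differed between these groups and cannot be told apart from the compound. Both sexes were used. Each library was made from a whole retina, and the sources used here do not say whether retinas of the same mouse entered a group, so p-values measure the spread between these retinas.

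Müller glia span the thickness of the retina and touch every neuron in it. They take up glutamate and turn it into glutamine, carry potassium and water from the synaptic layers to the vitreous and the vessels, buffer carbon dioxide, and supply lipid carried on apolipoproteins. After injury or ischaemia they enter gliosis, in which intermediate filament genes such as Gfap, Vim and Nes typically go up and some of the homeostatic genes can go down. The 10 genes cover glutamate handling (Glul, Slc1a3), water and potassium (Aqp4, Kcnj10), acid and base (Car2), lipid and secreted proteins (Apoe, Clu, Dkk3), and identity and cytoskeleton (Sox9, Vim).

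The sequences just upstream of Glul and Vim are shown because these genes varied most, in opposite directions, among the PBS libraries. RefSeq windows on GRCm38.p6 were at hand for 5 of the 10 genes (Glul, Kcnj10, Vim, Apoe and Slc1a3), and each print below runs 5′ to 3′ over the 250 bases that end at the transcription start. The Glul window is chr1:153899679-153899928 on the plus strand and the Vim window is chr2:13574061-13574310 on the plus strand. Capitals mark CCAAT or its reverse complement ATTGG.

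Glul: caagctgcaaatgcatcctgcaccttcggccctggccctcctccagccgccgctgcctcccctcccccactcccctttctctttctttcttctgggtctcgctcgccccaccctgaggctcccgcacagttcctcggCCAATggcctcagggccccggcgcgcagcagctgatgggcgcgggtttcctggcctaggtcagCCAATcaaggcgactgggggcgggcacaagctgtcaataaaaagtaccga

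Vim: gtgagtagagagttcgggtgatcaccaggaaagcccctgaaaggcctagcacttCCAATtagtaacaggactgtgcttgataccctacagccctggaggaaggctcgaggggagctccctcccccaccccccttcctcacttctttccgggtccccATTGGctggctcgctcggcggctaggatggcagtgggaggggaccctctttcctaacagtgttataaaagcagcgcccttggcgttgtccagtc

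Both windows hold 2 CCAAT boxes. This motif, chosen after the other motifs had been searched, stood in 33.8% of 32851 windows of the same length and in those of 4 of the 5 matched genes, all but Apoe. The elements through which ATF6 is known to act were searched on both strands: the ER stress response element (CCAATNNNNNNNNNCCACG, in 0.113% of windows), the ER stress response element II (0.0304%) and the UPR element core (TGACGTG, 1.65%). None was found in the windows of the 5 genes, nor was the SOX9 core ACAATGG (3.02%). The first element begins with CCAAT and the second with its reverse complement, so these overlap with the CCAAT search, and absence of a match speaks only of these letters in these windows.

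Atf6 itself was listed at 14.6 to 16.1 FPKM in Atf6+/+ OIR and at 13.6 to 16.8 in Atf6-/- OIR retinas, which overlapped. A stop codon need not lower the transcript, so this level does not check the genotype labels. The rod markers fitted the labelled tissue, with summed levels between 13368 and 20260 FPKM over the 20 libraries. Astrocytes share several of these genes with Müller glia. Of 4 astrocyte markers, the transcription factor Pax2 was the lowest, between 0.14 and 0.76 FPKM. The others were Aldh1l1 at 5.61 to 14.5, S100b at 2.03 to 11.4 and Pdgfra at 1.59 to 7.27 FPKM. The part of astrocytes in the results was not tested. In bulk retina, fewer cells of a type and less RNA per cell cannot be told apart.

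A pair of PBS libraries stood apart. PBS libraries 4 and 5 had summed rod marker levels of 14317 and 13368 FPKM, against 18193 to 20260 in the other PBS libraries, and the gliosis cytokine Lif at 4.25 and 5.23 FPKM, against 0.20 to 0.38. Nes, an intermediate filament of progenitors and reactive glia, was at 11.98 and 16.5 FPKM in these libraries and at 1.73 to 3.21 in the other PBS libraries. Lif and Nes were singled out after their values were seen. The summed level of the whole list of 10 gliosis genes did not set the pair apart: it was 365.8 and 191.2 FPKM in PBS libraries 4 and 5, and 254.3, 174.0 and 94.5 in PBS libraries 1 to 3. The fit of Ceapin-A7 against PBS is therefore given with and without them, an alternative chosen after the data had been seen. Lens transcripts were carried over unevenly: their summed level ran from 7.28 to 4821 FPKM in PBS and from 79.2 to 8711 in Ceapin-A7 libraries, and from 2.33 to 432.9 in the OIR libraries. Their part in the results was not tested.

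**Figure D1:**
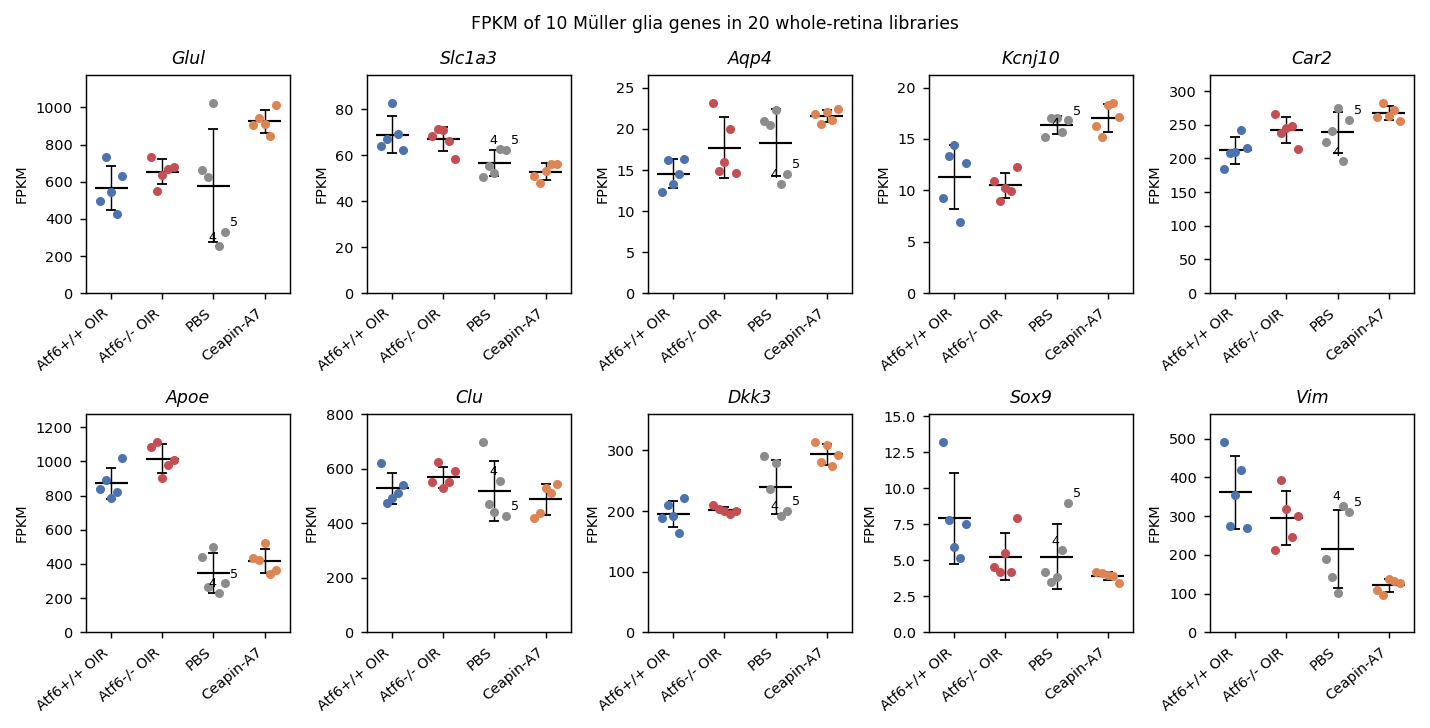
FPKM (vertical axes, from 0) of each of the 10 genes in the 20 libraries, 5 points per group in replicate order, with the mean as a line and the SD as a bar; PBS libraries 4 and 5 are numbered. Glul is at 254 and 330.2 in these PBS libraries, below all others, while Vim is at 327 and 312, above all other P30 libraries; Apoe and Kcnj10 separate the OIR libraries from the P30 libraries.

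Loss of Atf6 in OIR left the 10 genes with small differences. Under limma, Car2 and Apoe were higher in Atf6-/- OIR than in Atf6+/+ OIR retinas at an unadjusted p of 0.05 or less, the study's threshold, and none of the 10 passed the adjusted threshold of 0.05. Of the 15704 genes tested, 12.7% met the unadjusted threshold (6.92% higher) and 0.0318% the adjusted one, so 2 of 10 was near the background. Of the 10, 6 genes had a log2 fold change above 0 and 4 below it, with a median of 0.10 against 0.003 over all genes tested. None of the 10 separated the groups without overlap on the rescaled values, which 1.78% of all genes did. With array weights in limma, Car2 (adjusted p = 0.0275) and Sox9 (adjusted p = 0.0456) passed the adjusted threshold, as did 17.7% of all genes in that fit.

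After Ceapin-A7 at P30, which of the 10 genes met the unadjusted threshold turned on PBS libraries 4 and 5. With all 10 libraries, 3 of the 10 genes met the unadjusted threshold under limma, Glul and Dkk3 higher and Vim lower than in PBS, where 10.4% of 15408 genes did (5.04% higher and 5.32% lower). None passed the adjusted threshold, as for 0.0% of all genes. Without PBS libraries 4 and 5, none of the 10 met the unadjusted threshold, where 5.01% of 15378 genes did, and the median log2 fold change over the 10 genes went from 0.12 to 0.02. No gene of the 10 separated the groups without overlap, which 1.47% of all genes did.

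**Figure D2:**
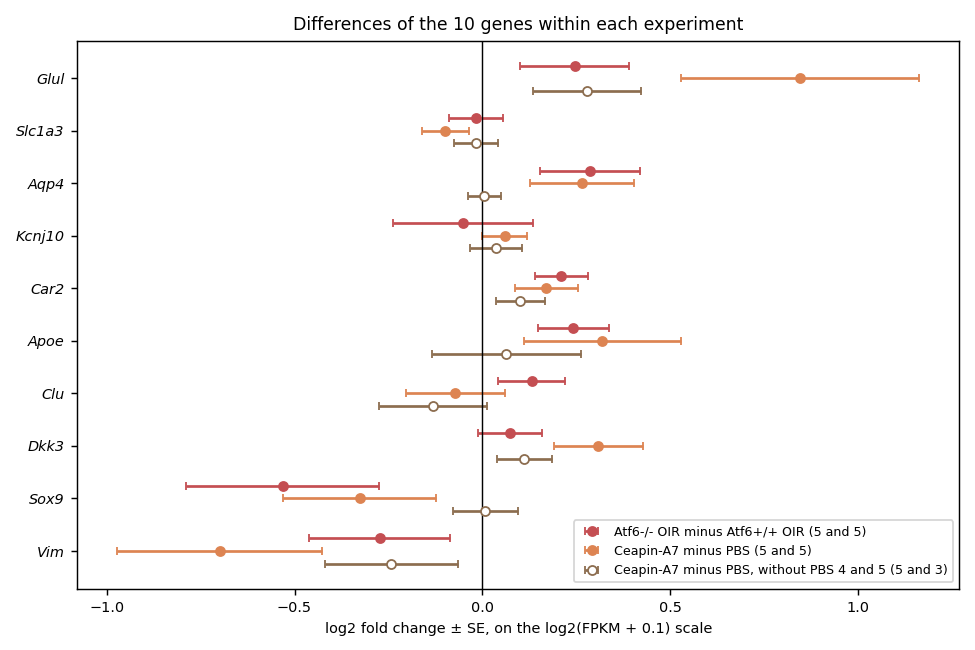
Log2 fold change (horizontal axis, on the log2(FPKM + 0.1) scale) with its SE for each of the 10 genes: Atf6-/- minus Atf6+/+ in OIR, Ceapin-A7 minus PBS, and the latter without PBS libraries 4 and 5 (open points). Without these libraries the difference of Glul goes from 0.85 to 0.28, that of Vim from -0.70 to -0.24, and that of Aqp4 from 0.26 to 0.005.

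Glul encodes glutamine synthetase, which turns glutamate and ammonia into glutamine in the glia. In Atf6+/+ OIR libraries 1 to 5 its level was 496, 735, 543, 425 and 629 FPKM, and in Atf6-/- OIR libraries 734, 552, 634, 669 and 681 FPKM. The groups overlapped, with the widest spread among Atf6+/+ retinas. The log2 fold change was 0.25 ± 0.15 (SE, unadjusted p = 0.116, adjusted p = 0.454 by limma).

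At P30 the PBS libraries held 666, 624, 1024, 254 and 330.2 FPKM of Glul, and the Ceapin-A7 libraries 905, 945, 912, 848 and 1014 FPKM. The Ceapin-A7 values lay close together, whereas the PBS values spanned 4.03-fold, with library 3 above every Ceapin-A7 library and libraries 4 and 5 at the bottom. The mean was 925 ± 60.9 (SD, n = 5) against 579 ± 306 in PBS, a log2 fold change of 0.85 ± 0.32 (SE, unadjusted p = 0.0213, adjusted p = 0.472 by limma). Leaving out PBS library 5 alone ended the call at the unadjusted threshold (unadjusted p = 0.0571 by limma), and without libraries 4 and 5 the log2 fold change was 0.28 ± 0.14 (unadjusted p = 0.0809, limma).

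Slc1a3 encodes GLAST, the main glutamate transporter of Müller glia. It varied little: 62.1 to 82.7 FPKM in Atf6+/+ OIR, 58.5 to 71.6 in Atf6-/- OIR, 50.6 to 62.7 in PBS and 47.8 to 56.3 in Ceapin-A7 libraries. Log2 fold changes were -0.02 ± 0.07 in OIR (adjusted p = 0.922, limma) and -0.10 ± 0.06 after Ceapin-A7 (adjusted p = 0.564, limma). PBS libraries 4 and 5, at the bottom for Glul, were the highest of the P30 libraries for Slc1a3, at 62.7 and 62.5 FPKM.

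Other genes of the glutamate cycle included the transporters Slc1a1, Slc1a2 and Slc1a7, the glutamine carrier Slc38a3 and the enzyme Glud1. None of these 5 met the unadjusted threshold in OIR. After Ceapin-A7, Slc1a1, a transporter found mainly in neurons, was lower, at 11.8 to 14.5 FPKM against 14.0 to 19.0 in PBS (log2 fold change -0.27 ± 0.08, unadjusted p = 0.00675, adjusted p = 0.472, limma). Its difference kept its direction without PBS libraries 4 and 5, at -0.17 ± 0.08 (unadjusted p = 0.0497, limma).

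Aqp4 encodes the water channel of glial endfeet. In Atf6+/+ OIR libraries it was at 12.4, 16.2, 13.3, 14.5 and 16.3 FPKM and in Atf6-/- OIR libraries at 23.2, 14.9, 15.9, 19.99 and 14.6 FPKM. Atf6-/- libraries 1 and 4 were above every Atf6+/+ library and the remaining ones lay among them. In limma the difference was 0.29 ± 0.13 (unadjusted p = 0.0505, adjusted p = 0.392, limma).

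At P30 Aqp4 was at 21.0, 20.5, 22.3, 13.3 and 14.5 FPKM in PBS and at 21.8, 20.6, 22.1, 21.1 and 22.4 FPKM in Ceapin-A7 libraries. Apart from PBS libraries 4 and 5, the values of both groups lay between 20.5 and 22.4. This amounted to a log2 fold change of 0.26 ± 0.14 with all libraries (unadjusted p = 0.083, limma) and 0.005 ± 0.04 without those libraries (unadjusted p = 0.906, limma).

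Kcnj10 encodes Kir4.1, the potassium channel that sits with Aqp4 in the endfeet. In OIR it ranged from 6.94 to 14.4 FPKM in Atf6+/+ and from 9.01 to 12.3 in Atf6-/- libraries, with the Atf6-/- values inside the range of the Atf6+/+ values (log2 fold change -0.05 ± 0.19, adjusted p = 0.905, limma). At P30 it ranged from 15.2 to 17.04 in PBS and from 15.2 to 18.5 in Ceapin-A7 libraries (0.06 ± 0.06, adjusted p = 0.713, limma). Unlike Glul and Aqp4, it was not low in PBS libraries 4 and 5, at 15.6 and 16.8 FPKM.

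The dystrophin complex that anchors Aqp4 and Kcnj10 was read through Dmd, Dag1 and Dtna, none of which was at the unadjusted threshold in either experiment, and neither was the potassium channel Kcnj2. Kcnj16, whose product can pair with Kir4.1, was below the filter in both, at 0.14 FPKM or less.

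Car2 encodes cytosolic carbonic anhydrase, which hydrates the carbon dioxide given off by neurons. Its level was 185, 209, 209.9, 242 and 216 FPKM in Atf6+/+ OIR libraries and 266, 238, 245, 249 and 214 FPKM in Atf6-/- OIR libraries. Atf6-/- library 5 lay among the Atf6+/+ values, and the others near or above their upper end. The means were 212 ± 20.5 and 242 ± 18.7 (SD, n = 5 each), which gave a log2 fold change of 0.21 ± 0.07 (unadjusted p = 0.0112, adjusted p = 0.361, limma). In all 10 fits that left out 1 library, Car2 stayed at the unadjusted threshold, with p from 0.00375 to 0.0334 (limma). At P30 it was at 196 to 275 FPKM in PBS and at 256 to 282 in Ceapin-A7 libraries, a log2 fold change of 0.17 ± 0.08 (unadjusted p = 0.0665, limma).

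Car14, a membrane-bound carbonic anhydrase of Müller glia and pigment epithelium, was higher in Atf6-/- OIR at the unadjusted threshold. Its level was 48.3, 76.8, 67.6, 72.4 and 77.9 FPKM in Atf6+/+ and 89.6, 89.6, 91.5, 106 and 65.9 FPKM in Atf6-/- libraries, so that Atf6-/- library 5 again lay among the Atf6+/+ values. Its log2 fold change was 0.39 ± 0.13 (unadjusted p = 0.0128, adjusted p = 0.362, limma). At P30 Car14 was lowest in PBS libraries 4 and 5, at 24.1 and 29.4 FPKM, where the other 8 libraries had 49.5 to 67.7. The bicarbonate carriers Slc4a4 and Slc4a3 did not meet the unadjusted threshold in either experiment. Car14, Slc1a1 and these carriers belong to a list of 19 homeostatic partner genes, 18 of them tested. In OIR, 2 of the 18 met the unadjusted threshold, 1 higher and 1 lower, where 12.7% of all genes did. After Ceapin-A7, 2 met it, both lower, where 10.4% of all genes did. Both counts were near the background.

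Apoe encodes apolipoprotein E, the lipid carrier that Müller glia release. In Atf6+/+ OIR libraries it was at 839, 889, 787, 822 and 1018 FPKM and in Atf6-/- OIR libraries at 1084, 1111, 903, 978 and 1006 FPKM. The lowest Atf6-/- library lay above 4 of the 5 Atf6+/+ libraries, and Atf6+/+ library 5 was among the Atf6-/- values. The means were 871 ± 90.1 and 1016 ± 83.5 (SD, n = 5 each), and the log2 fold change 0.24 ± 0.09 (unadjusted p = 0.025, adjusted p = 0.365, limma). Leaving out 1 library at a time gave p from 0.00471 to 0.0686 (limma), and 5 of the 10 fits kept Apoe at the unadjusted threshold.

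Apoe and Car2 are also made by the pigment epithelium, whose markers differed between the OIR groups. The summed level of the 9 pigment epithelium markers was 22.5 to 130.4 FPKM in Atf6+/+ and 84.7 to 319 in Atf6-/- libraries, and 5 of the 9 were higher at the unadjusted threshold, where 6.92% of all genes were. Atf6-/- library 2 had the highest sum and the highest Apoe, whereas Atf6-/- library 1 had the lowest sum of its group, 84.7 FPKM, with Apoe at 1084 and the highest Car2. The part of these cells in the differences of Apoe, Car2 and Car14 was not tested.

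At P30 Apoe was at 439, 268, 502, 231 and 288 FPKM in PBS and at 434, 421, 524, 339.8 and 366 FPKM in Ceapin-A7 libraries. The groups overlapped, with PBS libraries 2, 4 and 5 below every Ceapin-A7 library. The fitted log2 difference was 0.32 ± 0.21 (unadjusted p = 0.155, adjusted p = 0.574, limma) and 0.06 ± 0.20 without PBS libraries 4 and 5.

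Clu encodes clusterin, a secreted chaperone that also rides on lipoproteins. It ranged from 474 to 620.4 FPKM in Atf6+/+ OIR and from 529.6 to 626 in Atf6-/- OIR libraries (log2 fold change 0.13 ± 0.09, adjusted p = 0.497, limma), and from 428 to 698 in PBS and 420.0 to 546 in Ceapin-A7 libraries (-0.07 ± 0.13, adjusted p = 0.85, limma). The second difference was 0.04 without PBS library 1, the highest of all, and -0.13 without PBS libraries 4 and 5.

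Abca1 and Abcg1, which load lipid onto Apoe, and Lrp1, a receptor for it, did not meet the unadjusted threshold in either experiment.

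Dkk3 encodes a secreted protein of the Dickkopf family that is abundant in Müller glia. In OIR it was at 188, 209, 192, 164 and 221 FPKM in Atf6+/+ and at 209, 204, 199.8, 196 and 201 FPKM in Atf6-/- libraries. The Atf6-/- values spread over 2.47% (coefficient of variation) and lay inside the Atf6+/+ range, which spread over 11.1%. The log2 fold change was 0.07 ± 0.08 (adjusted p = 0.677, limma).

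At P30 Dkk3 was at 291, 237, 279.6, 192 and 201 FPKM in PBS and at 313, 281, 308, 274 and 292 FPKM in Ceapin-A7 libraries. PBS libraries 1 and 3 lay among the Ceapin-A7 values, library 2 below them and libraries 4 and 5 lowest. In limma the difference was 0.31 ± 0.12 (unadjusted p = 0.0235, adjusted p = 0.472, limma) and 0.11 ± 0.07 without PBS libraries 4 and 5 (unadjusted p = 0.158, limma).

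Sox9 encodes a transcription factor that Müller glia keep from their progenitors. It was at 13.2, 7.83, 5.91, 5.18 and 7.52 FPKM in Atf6+/+ OIR and at 4.51, 4.18, 5.50, 4.16 and 7.97 FPKM in Atf6-/- OIR libraries. Atf6+/+ library 1 was the highest of all 20 libraries, and 3 Atf6-/- libraries lay below every Atf6+/+ one. This amounted to a log2 fold change of -0.53 ± 0.26 (unadjusted p = 0.0597, adjusted p = 0.408, limma), the largest of the 10 genes in OIR. Leaving out 1 library at a time gave p from 0.0102, without Atf6-/- library 5, to 0.154, without Atf6+/+ library 1 (limma).

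At P30 Sox9 was at 4.17, 3.53, 3.86, 5.69 and 8.99 FPKM in PBS and at 4.16, 4.13, 3.97, 3.89 and 3.46 FPKM in Ceapin-A7 libraries. All values but those of PBS libraries 4 and 5 lay between 3.46 and 4.17. Its log2 fold change was -0.33 ± 0.20 (unadjusted p = 0.138, limma) with and 0.01 ± 0.09 without those libraries.

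Vim encodes vimentin, the intermediate filament of Müller glia, which is present at rest and goes up in gliosis. In OIR it was at 491, 275, 356, 418 and 269 FPKM in Atf6+/+ and at 214, 394, 318, 246 and 299.9 FPKM in Atf6-/- libraries. The groups overlapped, with Atf6+/+ libraries 1 and 4 above every Atf6-/- library and Atf6-/- libraries 1 and 4 below every Atf6+/+ one. The fitted log2 difference was -0.27 ± 0.19 (unadjusted p = 0.169, adjusted p = 0.498, limma).

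At P30 Vim was at 189, 144, 103, 327 and 312 FPKM in PBS and at 109, 97.9, 138, 133 and 128 FPKM in Ceapin-A7 libraries. PBS libraries 4 and 5 were the highest and PBS library 3 lay among the Ceapin-A7 values. The means were 215 ± 100.2 in PBS and 121 ± 17.2 after Ceapin-A7 (SD, n = 5 each), with a log2 difference of -0.70 ± 0.27 (unadjusted p = 0.026, adjusted p = 0.472, limma). Without PBS libraries 4 and 5 it was -0.24 ± 0.18 (unadjusted p = 0.201, limma), and leaving out PBS library 5 alone gave an unadjusted p = 0.0685 (limma).

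Of 10 genes that mark gliosis, 3 met the unadjusted threshold in OIR and 5 after Ceapin-A7, all lower, and none passed the adjusted threshold. All 10 of the list (Gfap, Edn2, Serpina3n, Lcn2, Stat3, Socs3, Osmr, Nes, Fgf2 and Lif) had log2 fold changes below 0 in both experiments, with medians of -0.55 in OIR and -0.90 after Ceapin-A7. Osmr in OIR changed sign with array weights or without Atf6+/+ library 1 or 4 or Atf6-/- library 1, and Serpina3n after Ceapin-A7 without PBS library 1. In OIR, 3 were lower at the unadjusted threshold, where 5.83% of all genes were, namely Lcn2, an acute phase protein (-0.55 ± 0.21), Nes (-0.73 ± 0.28) and Edn2, an endothelin of stressed photoreceptors (-0.84 ± 0.38). With array weights 1 of the 10 was lower at that threshold in OIR, where 3013 of 15704 genes were. With the GC correction 2 were, where 755 of 15704 genes were. Of the mural cell markers Pdgfrb, Cspg4, Rgs5, Acta2 and Myh11, 5 of 5 were below 0 in OIR and 4 met the unadjusted threshold, with a median log2 fold change of -0.62 and a summed level of 90.6 to 136.6 FPKM in Atf6+/+ and 76.0 to 91.7 in Atf6-/- libraries. Of 6 endothelial markers (Pecam1, Cdh5, Kdr, Cldn5, Tek and Emcn), 5 were below 0 and 1 met the unadjusted threshold, with sums of 88.3 to 141.7 and 85.8 to 120.5 FPKM. The part of vessel cells in the OIR differences of Nes, Vim and the other genes was not tested. After Ceapin-A7, 5 were lower, where 5.32% of all genes were: Osmr, a cytokine receptor subunit (-0.93 ± 0.33), Stat3, which acts downstream of it (-0.69 ± 0.25), Gfap, the glial filament (-0.79 ± 0.29), Nes (-1.28 ± 0.52) and Fgf2, a growth factor (-0.87 ± 0.39). The smallest adjusted p-values in limma were 0.363 in OIR and 0.472 after Ceapin-A7. Without PBS libraries 4 and 5, all 10 were still below 0, with a median of -0.40, and none met the unadjusted threshold. The differences of Lcn2, Edn2 and Serpina3n were then -1.04 ± 0.66, -0.94 ± 0.46 and -0.43 ± 0.51, against -0.99 ± 0.66, -1.02 ± 0.48 and -0.26 ± 0.44 with all libraries.

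Gfap was at 130, 60.1, 77.3, 109.6 and 51.2 FPKM in Atf6+/+ OIR and at 30.6, 92.8, 61.7, 40.8 and 66.9 FPKM in Atf6-/- OIR libraries. As for Vim, Atf6+/+ libraries 1 and 4 were the highest and Atf6-/- libraries 1 and 4 the lowest (log2 fold change -0.55 ± 0.31, unadjusted p = 0.0999, limma). At P30 it was at 31.3, 29.8, 17.2, 40.7 and 41.7 FPKM in PBS and at 9.31, 15.4, 27.0, 25.3 and 17.6 FPKM in Ceapin-A7 libraries. PBS library 3, which had the highest Glul and the lowest Vim of its group, also had the lowest Gfap.

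**Figure D3:**
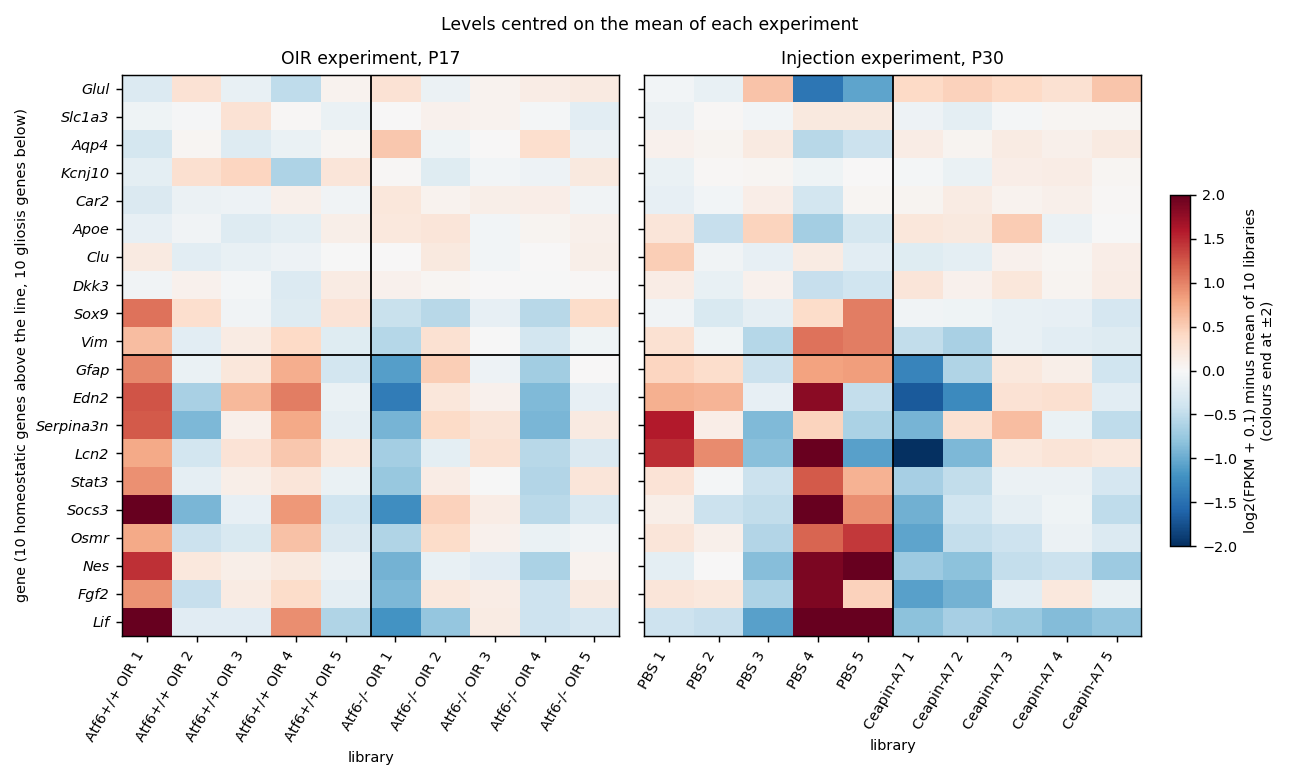
Level of the 10 genes (above the line) and of the 10 gliosis genes (below it) in each library, as log2(FPKM + 0.1) minus the mean of the 10 libraries of the experiment; colours end at -2 and 2. PBS libraries 4 and 5 are low for Glul and Aqp4 and high for Sox9, Vim and Nes, and in OIR Atf6+/+ libraries 1 and 4 are high and Atf6-/- libraries 1 and 4 low for Vim and Gfap.

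In a further list of 19 Müller glia genes, counts were near the background. In OIR, 2 met the unadjusted threshold, both higher, where 12.7% of all genes met it and 6.92% were higher. After Ceapin-A7, 3 met it, 2 higher and 1 lower, where 10.4% of all genes did. In OIR, Acsl3, which activates long-chain fatty acids, and Prdx6, a peroxidase, were higher at the unadjusted threshold. Acsl3 was at 69.5 to 86.2 FPKM in Atf6+/+ and at 82.8 to 109 in Atf6-/- libraries (log2 fold change 0.35 ± 0.07, unadjusted p = 0.000503, adjusted p = 0.277, limma), and Prdx6 at 50.1 to 58.4 and 56.7 to 80.6 (0.29 ± 0.09, adjusted p = 0.357, limma). After Ceapin-A7, Ptn, a secreted growth factor (0.47 ± 0.18), and Id3, an inhibitor of basic helix-loop-helix factors (0.37 ± 0.16), were higher, and Sox2, a partner of Sox9 in glial identity, was lower (-0.31 ± 0.11). Of these 3, only Sox2 met the threshold without PBS libraries 4 and 5 (-0.14 ± 0.05, unadjusted p = 0.0299, limma). Rlbp1, the retinal carrier protein of Müller glia, had log2 fold changes of 0.06 ± 0.09 in OIR and 0.16 ± 0.14 after Ceapin-A7 (adjusted p = 0.726 and 0.654, limma). The medians over the list were -0.09 and 0.06.

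**Figure D4:**
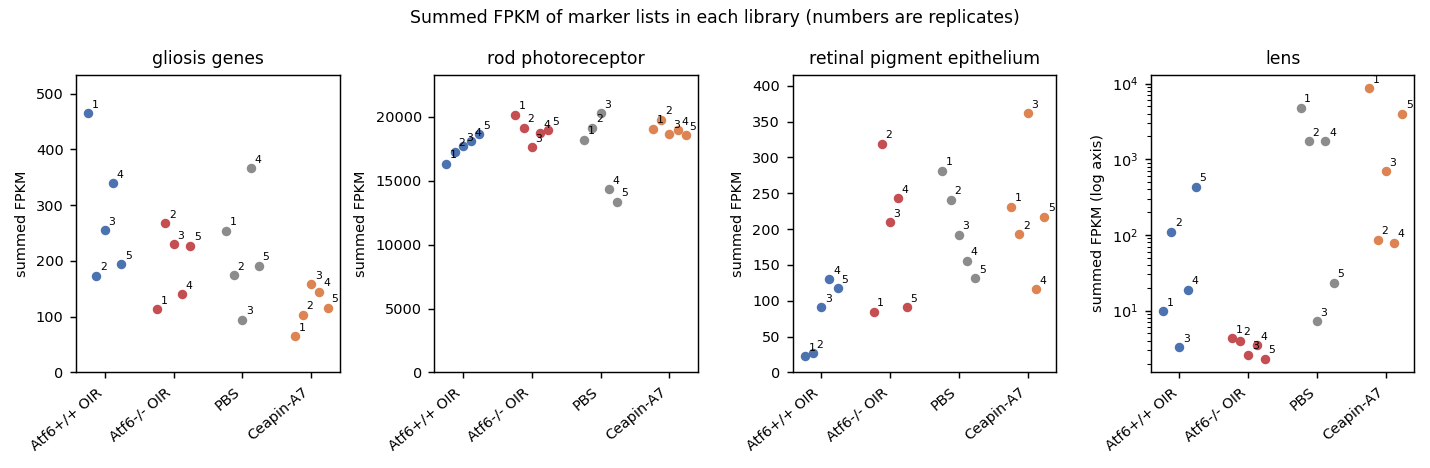
Summed FPKM of the gliosis genes and of the rod, pigment epithelium and lens markers in each library (the lens panel has a log axis); numbers are replicates. PBS libraries 4 and 5 have the lowest rod sums, the pigment epithelium sums of the Atf6-/- OIR group reach 319 against 130.4 at most in Atf6+/+, and lens sums differ between libraries of the same group at P30.

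Whether the genes responded differently to loss of Atf6 in OIR and to Ceapin-A7 at P30 was tested as the difference of the 2 contrasts in a fit of all 20 libraries. None of the 10 met the unadjusted threshold in limma, where 9.2% of 15628 genes did and 0.032% had an adjusted p under 0.05. The smallest p was that of Glul, 0.123, with a difference of -0.60 ± 0.37 (SE, log2), and adjusted p-values ran from 0.631 to 0.98. The directions were shared by 8 of the 10 genes. Glul, Aqp4, Car2, Apoe and Dkk3 were above 0, and Slc1a3, Sox9 and Vim below it. They differed for Kcnj10 and Clu, whose fold changes were within 1.5 SE of 0. So were those of Slc1a3 (-0.02 ± 0.07), Dkk3 (0.07 ± 0.08) and Vim (-0.27 ± 0.19) in OIR. How many of all genes shared their direction is not given, so 8 of 10 cannot be set against a background. Dkk3 in OIR changed sign with array weights and Sox9 after Ceapin-A7 without PBS libraries 4 and 5.

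Across the 4 groups, Apoe, Glul and Clu had the highest levels of the 10, and Aqp4, Kcnj10 and Sox9 the lowest. Apoe was higher in all 10 OIR libraries (787 to 1111 FPKM) than in all 10 P30 libraries (231 to 524), with a mean in Atf6+/+ OIR 2.52 times that in PBS. Kcnj10 was lower in all 10 OIR libraries (6.94 to 14.4) than in all 10 P30 libraries (15.2 to 18.5), with a ratio of 0.693. For the other 8 genes the experiments overlapped. The share of all genes that separated the experiments in this way is not given, so these 2 cannot be set against a background. From lowest to highest mean, Glul ran Atf6+/+ OIR, PBS, Atf6-/- OIR and Ceapin-A7, and among these neighbours only Atf6-/- OIR and Ceapin-A7 did not overlap. Sox9 and Vim were highest in Atf6+/+ OIR, then Atf6-/- OIR, PBS and Ceapin-A7, with every pair of neighbours overlapping. Age, OIR, injection and experiment cannot be told apart here, so no test was made. Summed microglia markers were also higher in all OIR libraries (53.4 to 87.5 FPKM) than in all P30 libraries (37.3 to 51.4). So were summed astrocyte markers (23.4 to 29.1 against 14.2 to 20.25), while rod and cone sums overlapped. The part of microglia and astrocytes in the level of Apoe was not tested.

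Shared variation of the 10 genes was described against their mean. Each gene was compared with the mean of the other 9 over the 10 libraries of an experiment, after centring on group means. This gave 20 relations, none with an adjusted permutation p under 0.05. Genes that move in opposite directions, as Glul and Vim did in PBS libraries 4 and 5, offset each other in this mean. These relations therefore cannot show that the genes varied independently. The strongest was that of Dkk3 in OIR (Pearson r = 0.83, permutation p = 0.00403, adjusted 0.0806; Spearman rho = 0.83, permutation p = 0.00491, adjusted 0.0826), with r = 0.663 without the libraries farthest on the x axis. Vim in the P30 experiment had r = -0.745 (permutation p = 0.0157, adjusted 0.153; rho = -0.588, permutation p = 0.0798, adjusted 0.273), which went to -0.226 without PBS libraries 3 and 4. All 20 libraries, centred on their group means, were also searched for genes that deviated most like the mean of the 10. The highest of the 6954 genes searched were Fads2, a fatty acid desaturase (r = 0.903), Pdk2, a kinase of pyruvate dehydrogenase (r = 0.886), and Nbl1, a secreted inhibitor of bone morphogenetic proteins (r = 0.85). These are descriptions over libraries in which lens and pigment epithelium markers were uneven.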

How the data were processed

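Per the labels, stranded mRNA libraries were made from each retina. The authors mapped read pairs with HISAT2 (v2.0.4) to GRCm39, quantified genes by RSEM (v1.2.18) and deposited FPKM rounded to 2 decimals. The authors' comparisons used DESeq2 (v1.4.5). FPKM are not counts, so no count model was fitted and no counting interval is given. Low values gave too few steps to recover reads (43 to 89 ratios per library, the most frequent being 1 in 17 of 20 libraries), so depth is unknown. Groups came from the labels, 5 libraries each. Each FPKM was divided by its library's median-of-ratios factor, 0.1 was added, and the log2 values were compared within each experiment, for genes whose mean FPKM exceeded 0.1, with limma (version 3.58.1, eBayes with trend, two-sided) in R (version 4.3.3). P-values were adjusted by Benjamini-Hochberg over all genes tested. Fold changes on this scale understate the change of low genes. The test was checked on simulated data with independent noise, in which 200 genes of low spread were given a log2 fold change of 1, up or down. At the adjusted threshold, 100% of these were called, and 0.117% (OIR) and 0.0661% (P30) of the unchanged genes. This check did not cover smaller differences or changed genes of wider spread.

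The 10 genes and the lists were chosen with earlier results of these data known. Named beyond the 10 are Gfap, Rlbp1, list genes at an unadjusted p of 0.05 or less (at most 5 per list and experiment, by p), the top markers and the 3 genes most alike. Others, such as Lif, Pax2 and single partners, were named after their values were seen. Alternatives were pseudocounts of 1 and 0.01, other filters and scalings, limma without trend or with array weights, all 20 libraries in 1 fit, a block for the replicate number, a GC correction (lowess, span 0.3) and libraries left out. RefSeq windows are of GRCm38.p6, and no coordinates of the authors' build are given. Some genes of the lists are not reported here.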

Additional observations from a re-analysis of the deposited data

How the results depend on the processing

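Under other pseudocounts, filters, scalings, limma without trend and a fit of all 20 libraries, 2 or 3 of the 10 genes in OIR and 3 after Ceapin-A7 met the unadjusted threshold and none the adjusted one. The shares of all genes called in those fits are not given. Array weights gave 2 after Ceapin-A7, where 1493 of 15408 genes met the unadjusted threshold. Array weights also gave 2 adjusted calls in OIR, Car2 higher (adjusted p = 0.0275, limma) and Sox9 lower (adjusted p = 0.0456, limma), while the calls over all genes went from 5 to 2772; no other alternative gave a gene of the 10 an adjusted p under the threshold, and the cause was not tested. Array weights turned Dkk3 in OIR to -0.00675, and quantile normalization Rlbp1 in OIR to -0.011. Without PBS libraries 4 and 5, 0 genes met the unadjusted threshold after Ceapin-A7 and Sox9 turned to 0.0084; over all genes the count went from 1596 to 770.

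Same-numbered libraries did not deviate together (correlations from -0.258 to 0.31), so the numbers were not read as pairs. With the replicate block, 3 genes in OIR and 4 after Ceapin-A7 met the unadjusted threshold, and 0 the adjusted one. With the replicate block and GC correction the counts were 4 and 5. The shares of all genes called in the fits with a replicate block are not given, so these counts cannot be set against a background. Fold changes in OIR ran with transcript GC content across genes (Spearman rho -0.479, and -0.0992 after Ceapin-A7). GC correction alone gave 3 and 3, where 1629 of 15704 and 1694 of 15408 genes met the unadjusted threshold.

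Leaving out 1 library at a time gave 1 to 4 genes at the unadjusted threshold in OIR (1 without Atf6-/- library 1, 4 without Atf6+/+ library 2), 0 to 6 after Ceapin-A7 (0 without PBS library 5, 1 without PBS library 4 or Ceapin-A7 library 1, 5 without PBS library 1, 6 without PBS library 3) and 0 to 2 for the difference between the contrasts (1 without PBS library 1, 2 without PBS library 3), and 0 adjusted calls in each. No share of all genes called is given for these fits, so the counts cannot be set against a background. Log2 fold changes changed sign for Kcnj10 in OIR (-0.227 to 0.0423), Slc1a3 in OIR (-0.0455 to 0.0459) and Clu after Ceapin-A7 (-0.142 to 0.0433). Depth is unknown, and 2 decimals limit genes near the filter.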

Other observations

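Over the 40 sets of 5 libraries (10 genes in 4 groups), no highest or lowest library passed Dixon's 95% critical value of 0.71, a rule that cannot single out a pair of libraries lying side by side, such as PBS libraries 4 and 5 for Glul and Vim.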
